A study of Homo sapiens with 6 samples.

Results

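The regulators of the switch from fetal to adult globin were examined in HEL cells, a human erythroleukemia cell line, as 10 genes taken by name from the 31999 genes of the deposited table. These were the transcription factors BCL11A, ZBTB7A, SOX6, KLF3 and MYB, the RNA-binding proteins LIN28B, IGF2BP1, IGF2BP2 and IGF2BP3, and the chromatin protein HMGA2. All 10 were listed. HEL cells carrying a lentiviral hairpin against TMIGD2 (shTMIGD2, 3 libraries) or a non-targeting hairpin (shCtrl, 3 libraries) were sequenced as poly(A) RNA, the former labelled as a knockdown of TMIGD2, a receptor of the CD28 family. The paper's methods describe puromycin selection of transduced lines and several hairpins against TMIGD2, and the labels do not say which of them these libraries carried. The deposited table gave 1 log2 CPM value per gene, besides the authors' own test of shTMIGD2 against shCtrl, which was not used here. In CPM the fragments of a gene are taken relative to all those counted in a library. From its column name, which gives no sample or group, this value was read as the mean over the 6 libraries together. The values below are therefore levels in HEL cells with both hairpins pooled, with no spread, and no difference between shTMIGD2 and shCtrl was analysed here. TMIGD2 itself had a mean log2 CPM of 4.08, and its knockdown could not be checked on a pooled mean.

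All 10 regulators were at or above 1 CPM in HEL cells, and 8 of them were at or above 10 CPM. Among all genes listed, 43.8% reached 1 CPM and 28.7% reached 10 CPM, and among the 16318 that matched a protein-coding gene the shares were 69.1% and 52.6%. IGF2BP1, an RNA-binding protein of fetal tissues, stood first of the 10 at a mean log2 CPM of 9.02. SOX6, a repressor of embryonic and fetal globin genes, stood last at 0.67. BCL11A, the best known repressor of the fetal globin genes, was at 3.85, and 51.8% of the listed protein-coding genes had a lower mean log2 CPM.

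By way of background, erythroid cells express embryonic, then fetal, then adult globin genes, and the late step is held by repressors that recruit chromatin-modifying complexes to the fetal genes. BCL11A and ZBTB7A act as such repressors, SOX6 is a partner of BCL11A, KLF3 competes with the activator KLF1 at CACCC elements, and MYB keeps erythroid progenitors cycling and acts upstream of KLF1. LIN28B, an RNA-binding protein of fetal blood progenitors, blocks maturation of the let-7 microRNAs, and let-7 in turn pairs with the messages of LIN28B, of the IGF2BP proteins and of HMGA2. The erythroid and megakaryocytic lineages meet in HEL cells, which are known for fetal rather than adult globin.

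The let-7 family is shown because its seed, bases 2 to 8 of the mature microRNA, is what the members of the LIN28B branch have in common. RefSeq (GRCh38.p14) held 9 different mature sequences of the family, and all 9 had the same seed. In the examples below the seed is in capitals.
let-7a-5p: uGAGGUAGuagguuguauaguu
let-7b-5p: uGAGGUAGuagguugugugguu
let-7e-5p: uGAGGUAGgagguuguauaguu
let-7g-5p: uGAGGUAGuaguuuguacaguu
miR-98-5p: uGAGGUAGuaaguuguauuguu

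The complement of this seed, CTACCTC, was searched on the sense strand in the 3′ UTR of each regulator's canonical transcript in GENCODE 44. It occurred 14 times in 5 of the 10 regulators, and these 5 were HMGA2, LIN28B and the 3 IGF2BP genes. HMGA2, LIN28B and IGF2BP1 held 4 matches each. IGF2BP2 and IGF2BP3 held 1 match each. BCL11A, ZBTB7A, SOX6, KLF3 and MYB held none, which says only that these 7 letters are not in the 3′ UTRs searched. 6 sites are printed, at least 1 from each of the 5 genes, to show the match (capitals) in its surroundings, each followed by the next base, and an A there is the base favoured opposite position 1 of the microRNA. All lie on GRCh38 and are written along the transcript.
LIN28B, chr6:105078812-105078834, plus strand: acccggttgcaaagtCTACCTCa
LIN28B, chr6:105081421-105081443, plus strand: gtttacagcaaaaggCTACCTCa
IGF2BP1, chr17:49053698-49053720, plus strand: cagcagtgctagtaaCTACCTCa
IGF2BP2, chr3:185644220-185644242, minus strand: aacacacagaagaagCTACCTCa
IGF2BP3, chr7:23311795-23311817, minus strand: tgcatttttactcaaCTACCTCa
HMGA2, chr12:65963298-65963320, plus strand: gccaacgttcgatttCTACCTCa

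The first LIN28B site began 44 bases after the stop codon, and the first HMGA2 site began 21 bases after it. Of the 14 matches, 8 were followed by an A, 3 of them in IGF2BP1, 2 in LIN28B and 1 in each of IGF2BP2, IGF2BP3 and HMGA2. Among the 3′ UTRs of 16231 listed protein-coding genes, 10.5% held at least 1 match, and 12 genes, or 0.0739%, held 4 or more, HMGA2, LIN28B and IGF2BP1 included. Long 3′ UTRs hold more matches by length alone, so each was set beside others within 10% of its own length. For HMGA2, with 2999 bases, 15.3% of 998 such 3′ UTRs held a match, and for LIN28B, with 4549 bases, 24.2% of 712 did. For IGF2BP1, with 6701 bases, the share was 36.3% of 322. Of these 3′ UTRs of like length, 0% held 4 or more beside HMGA2, 0.14% beside LIN28B and 0% beside IGF2BP1. The density was 1.33 matches per kb in HMGA2, 0.879 in LIN28B and 0.597 in IGF2BP1, against 0.0637 per kb over all 3′ UTRs searched. For the single matches of IGF2BP2 and IGF2BP3, 13.4% and 13.6% of 3′ UTRs of like length held at least as many. These genes were already known as let-7 targets, as the background above says, so their matches are not an independent finding. A match is a feature of the reference sequence, and mature let-7 was not measured in these poly(A) libraries.

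**Figure D1:**
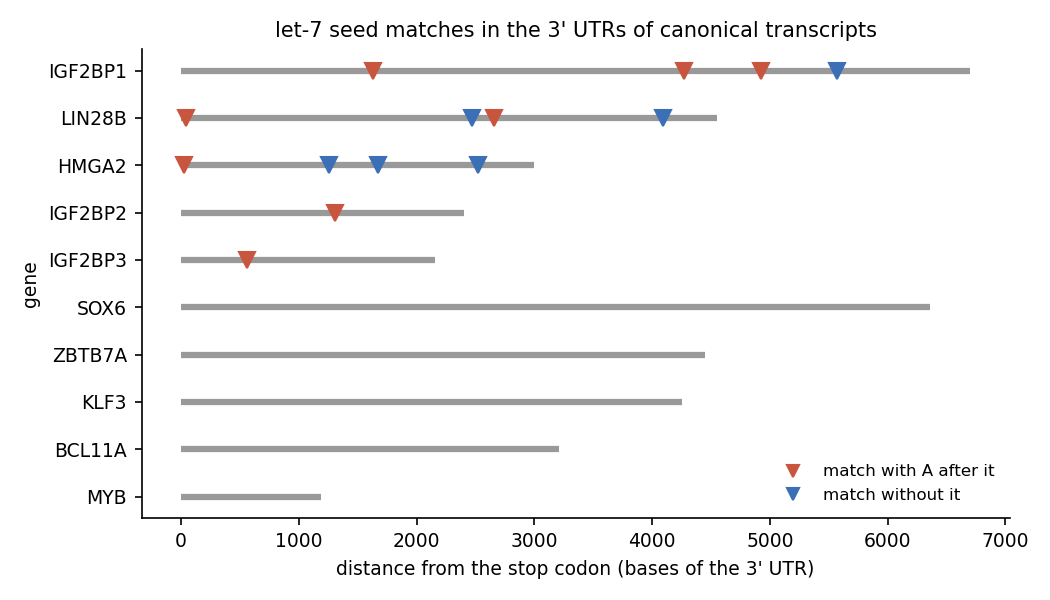
Positions of the let-7 seed matches in the 3′ UTRs of the 10 regulators (grey bars, canonical transcripts), as distance in bases from the stop codon on the x axis and gene on the y axis. The matches, red where an A follows and blue where it does not, all lie in IGF2BP1, LIN28B, HMGA2, IGF2BP2 and IGF2BP3, and the bars of the other 5 genes are empty.

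To compare genes, each mean CPM was divided by the length of the gene's exons in kb, the union over all transcripts in GENCODE 44. The log2 of the quotient is named the level per kb. The authors counted fragments on refSeq genes, so exons found only in GENCODE 44 add length but no fragments. The median level per kb was 4.61 over the 4 RNA-binding proteins and 3.23 over the 5 transcription factors, whose ranges overlapped. IGF2BP1 (chromosome 17, 48997385 to 49056145, plus strand, GRCh38), which binds and stabilises messages of growth genes, had a level per kb of 5.75. LIN28B (chromosome 6, 104936616 to 105083332, plus strand) had a level per kb of 4.84, and 91.1% of protein-coding genes lay below it. IGF2BP2 (chromosome 3, 185643130 to 185825042, minus strand) stood at 4.37 per kb. IGF2BP3 (chromosome 7, 23310209 to 23470491, minus strand) stood at 2.66 per kb. The order within the family was thus IGF2BP1, IGF2BP2, IGF2BP3. IGF2BP1 was 2.6-fold above IGF2BP2 per kb and 8.51-fold above IGF2BP3 per kb. With the length of the canonical transcript in place of all exons these folds were 2.29 and 4.66 in turn, and with coding length 4.88 and 9.63, so the order held while both distances depended on the length taken.

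The 3 IGF2BP coding sequences were 70.0% to 70.7% identical to each other in pairwise alignments. Reads can be shared only where stretches are identical, and 50-base words of the canonical transcript were searched in the transcripts of all other genes. For IGF2BP1 no such word occurred elsewhere on the same strand. For IGF2BP2 7.35% of the words did, 180 of these 311 in an unnamed gene. For IGF2BP3 9.42% did, in 2 other genes, with 393 of these 398 words in another unnamed gene. Whether these unnamed genes are copies of the IGF2BP genes was not examined. Of the IGF2BP3 words 34.8% occurred on the opposite strand of other transcripts. MALSU1, a gene of the mitochondrial ribosome, runs the other way there, its exons cover 1521 of the 4274 bases of the IGF2BP3 canonical transcript, and it was listed at a mean log2 CPM of 4.01. The library kit kept strand, but the strand setting of the counting is not given in the sources used here, so reads of IGF2BP3 and MALSU1 may not have been told apart.

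**Figure D2:**
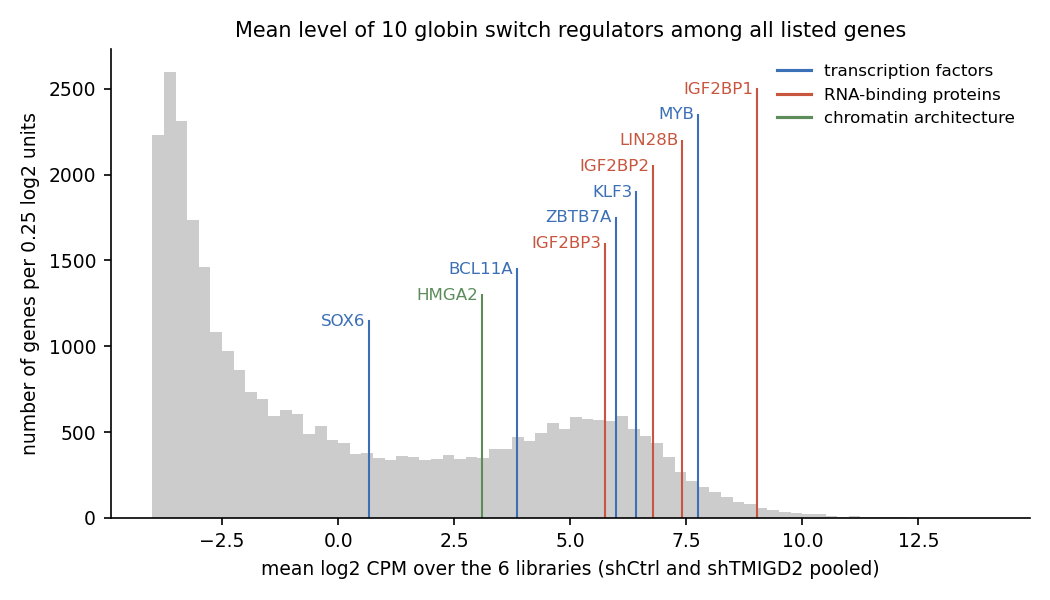
Mean log2 CPM of the 10 regulators (vertical lines, coloured by role) on the distribution of all 31999 listed genes (grey, number of genes per 0.25 log2 units). IGF2BP1, MYB and LIN28B stand in the upper tail at 9.02, 7.74 and 7.42, and BCL11A, HMGA2 and SOX6 stand apart from the other 7 at 3.85, 3.10 and 0.67.

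Among the transcription factors, MYB was the most abundant and SOX6 the least. MYB (chromosome 6, 135181308 to 135219173, plus strand) had a mean log2 CPM of 7.74 and a level per kb of 5.29, with 93.6% of protein-coding genes below it per kb. KLF3 (chromosome 4, 38664197 to 38701517, plus strand) had a mean log2 CPM of 6.43 and a level per kb of 3.67. ZBTB7A (chromosome 19, 4043303 to 4066899, minus strand), also known as LRF, had a mean log2 CPM of 5.98 and a level per kb of 3.23. KLF3 was thus 1.35-fold above ZBTB7A per kb of all exons, 1.57-fold per kb of the canonical transcript and 2.30-fold by coding length, distances without any error estimate. BCL11A (chromosome 2, 60450520 to 60554467, minus strand) had a level per kb of -0.76, and 37.2% of protein-coding genes lay below it per kb. Per kb of the canonical transcript the share was 45.4%. SOX6 (chromosome 11, 15966449 to 16739591, minus strand) had a level per kb of -3.66 and 22.2% of protein-coding genes below it. SOX6 rested on a mean of 1.59 CPM, while C11orf58, which overlaps its locus on the other strand without sharing any exon base, was at 170 CPM.

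The gap between ZBTB7A and BCL11A depended on the length. Per kb of all exons ZBTB7A was 15.9-fold above BCL11A. Per kb of the canonical transcript it was 4.15-fold above, because the annotated exons of BCL11A add up to 24514 bases over 27 transcripts, 4.02 times the 6102 bases of its canonical transcript. BCL11A was 7.45-fold above SOX6 per kb of all exons and 13.9-fold above it per kb of the canonical transcript. Under all 4 lengths tried, MYB, ZBTB7A and KLF3 lay above BCL11A and BCL11A lay above SOX6.

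HMGA2 (chromosome 12, 65824460 to 65966291, plus strand), which bends DNA at AT-rich stretches and is known to raise fetal hemoglobin when forced on in adult erythroblasts, had a mean log2 CPM of 3.10. Its level per kb was -0.81 over all exons and 1.06 over the canonical transcript, beside -0.76 and 1.24 for BCL11A. With the coding length alone, 327 bases in HMGA2 and 2505 in BCL11A, the order turned and HMGA2 was 4.56-fold above BCL11A. The let-7 matches of HMGA2 lie in the 3′ UTR of 2999 bases of its canonical transcript. The transcript with the longest 3′ UTR of the gene, 7421 bases, held 0 matches. The pooled gene level does not tell these 3′ ends apart.

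**Figure D3:**
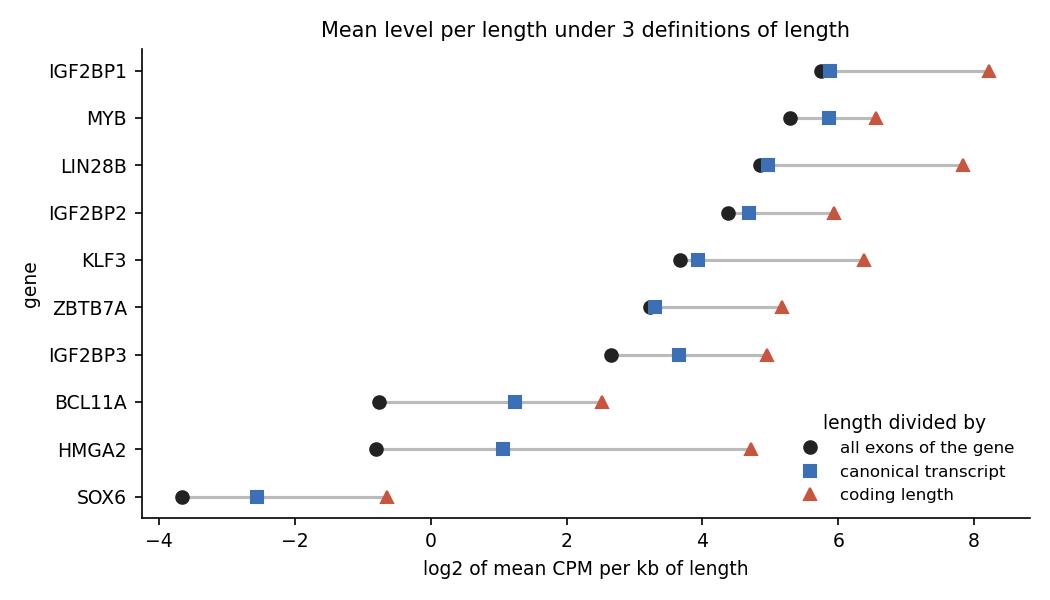
Level of each regulator as log2 of mean CPM per kb (x axis) when the length is the union of exons (black circles), the canonical transcript (blue squares) or its coding part (red triangles), with genes on the y axis. IGF2BP1 stands highest and SOX6 lowest with each length, while HMGA2 spans -0.81 to 4.72.

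Each regulator except the IGF2BP genes was set beside its closest relatives. LIN28A, which also blocks let-7 maturation, was at 0.189 CPM, and LIN28B lay 604-fold above it per kb, a size that rests on very few reads of LIN28A. BCL11B, a lymphoid regulator, was at 0.320 CPM, and BCL11A lay 15.7-fold above it per kb of all exons and 63.1-fold above it per kb of the canonical transcript. In both pairs the regulator was the one expressed, and the relative was under 1 CPM.

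In other pairs the relative was the more abundant. HMGA1, the architectural relative of HMGA2, had a mean log2 CPM of 10.04. It lay 794-fold above HMGA2 per kb of all exons, 263-fold per kb of the canonical transcript and 125-fold by coding length. SOX5, a close relative of SOX6 in the SoxD group, lay 37.9-fold above SOX6 per kb of all exons, 28.0-fold per kb of the canonical transcript and 23.1-fold by coding length, whereas SOX13, the other SoxD gene, lay below SOX6. ZBTB7B, which directs T helper cell fate, lay 1.57-fold above ZBTB7A per kb of all exons and 1.09-fold by coding length, and ZBTB7C was at 0.849 CPM. MYBL2, a cell cycle regulator, lay 1.63-fold above MYB per kb of all exons but 1.12-fold below MYB by coding length, so the 2 were not ordered. MYBL1, a regulator of meiosis, had a level per kb of -1.51 beside 5.29 for MYB.

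Among the 17 listed genes from KLF1 to KLF17, KLF3 lay below KLF1 and KLF16 alone per kb of all exons, and with canonical lengths KLF13 lay above it too. KLF1, the activator of adult globin that raises both KLF3 and BCL11A, had a level per kb of 6.93 and lay 9.57-fold above KLF3 per kb of all exons, 7.91-fold per kb of the canonical transcript and 2.17-fold by coding length. KLF4 and KLF7 were the lowest of the family, at 0.105 and 0.116 CPM. Of the 25 relatives in all, 16 reached 1 CPM and 9 reached 10 CPM. Their median level per kb was -1.19, beside 3.45 over the 10 regulators and 1.13 over all protein-coding genes listed. Most of the 25 are KLF genes, so that median mainly reflects the KLF family.

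The complexes that BCL11A and ZBTB7A recruit were expressed throughout. All 13 subunits listed for NuRD, a complex that moves nucleosomes and removes acetyl groups from histones, were above 10 CPM, with a median level per kb of 4.34. RBBP4 (5.62 per kb), HDAC2 (4.47) and MTA2 (5.94) had the highest mean CPM of them, and MTA3 (1.88) and CHD4 (1.84) the lowest. The lowest of the subunits, CHD4, the nucleosome remodeller, still lay above BCL11A at -0.76 per kb. All 10 of the other corepressors were also above 10 CPM. DNMT1, the maintenance DNA methyltransferase, had a level per kb of 5.68 and KDM1A, a histone demethylase, 4.23, while CTBP2 (2.86) and EHMT1 (1.53), a histone H3 lysine methyltransferase, had the lowest mean CPM of this list.

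Of 16 other regulators of the switch, 15 reached 1 CPM, with a median level per kb of 3.33. ATF4, the stress factor of the heme-regulated kinase pathway, had a level per kb of 7.45. TAL1 (6.21) and LDB1 (6.75), parts of the complex that loops the globin enhancer to its genes, followed in mean CPM. ZNF410, which is known to drive CHD4, was the 1 gene under 1 CPM, at 0.347 CPM, and NFIA stood at 7.85 CPM. Overlapping genes and shared words were not searched for ZNF410, and a link between its level and that of CHD4 was not tested.

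The genes that make, trim and act with let-7 were expressed apart from LIN28A. Of the 12 listed, 11 were at or above 10 CPM. XPO5, the exporter of microRNA precursors, had a level per kb of 4.52, AGO2, the slicing Argonaute protein, 3.56, and DICER1, which cuts the precursor, 2.76. AGO4 had the lowest mean CPM after LIN28A, 25.7, and a level per kb of 1.79. TUT4, the uridylating enzyme known as the partner of LIN28A, had a level per kb of 2.92. LIN28B, at 4.84 per kb, lay above each of these 12 genes per kb of all exons, but below XPO5 per kb of the canonical transcript, at 4.97 beside 5.19. 2 let-7 host transcripts, looked up by name after the table had been seen, were at 2.32 CPM (MIRLET7BHG) and 0.0841 CPM (MIRLET7A1HG). Hosts under other names were not looked up, and the amount of mature let-7 does not follow from a host transcript.

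**Figure D4:**
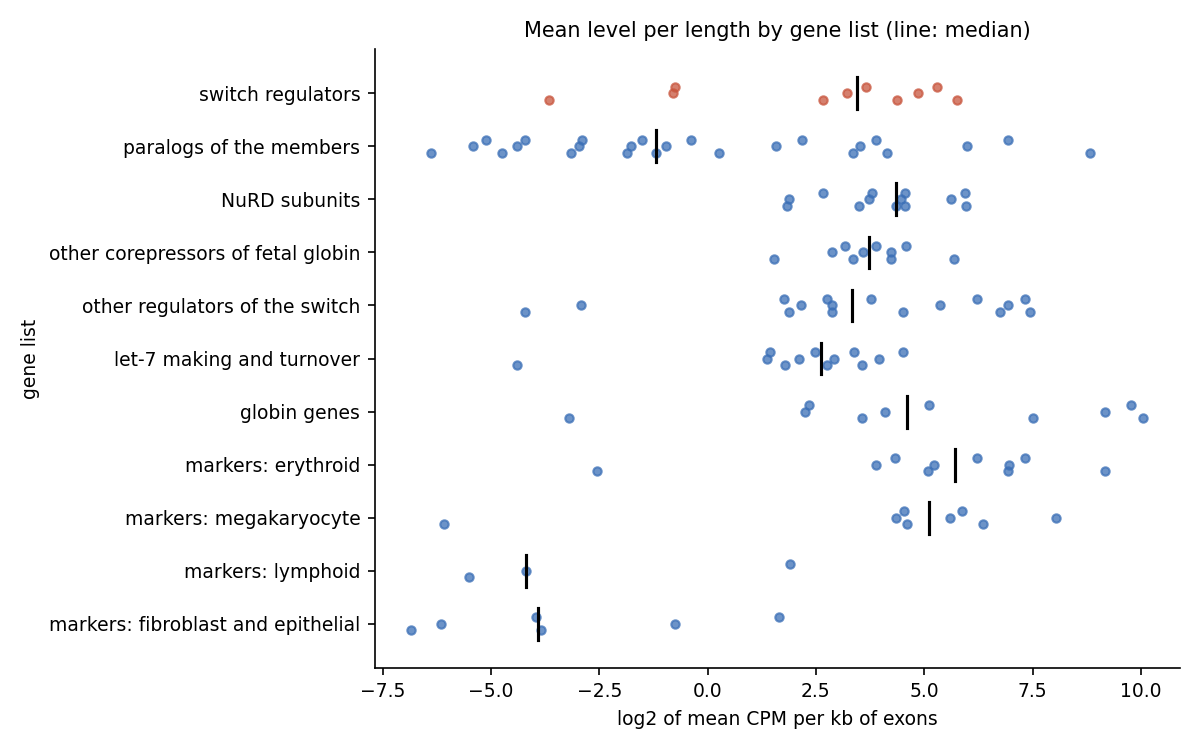
Log2 of mean CPM per kb of exons (x axis) of each listed gene, by gene list (y axis), with the 10 regulators in red, the other lists in blue and a black line at each median. The regulators have a median of 3.45, between the 13 NuRD subunits at 4.34 and the 25 relatives, mostly KLF genes, at -1.19. Of the regulators, BCL11A, HMGA2 and SOX6 lie below 0.

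The globin genes were listed at unequal levels. HBG1, a fetal globin gene, had a level per kb of 9.17 and HBG2, its near-identical copy, had 7.50. Reads of stretches identical in the 2 may be split between them or left uncounted, and the sources used here do not say which. HBB, the adult gene, had a level per kb of 4.10, and HBE1, the embryonic gene, 2.33. The alpha globin genes HBA1 and HBA2, themselves near-identical, stood at 10.05 and 9.78 per kb, and HBM was the lowest globin gene at a mean log2 CPM of -3.32.

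The labelled cell type was checked against markers. Of 10 erythroid markers 9 were above 10 CPM, with TFRC, HBG1 and TAL1 highest in mean CPM and the band 3 gene SLC4A1, of late red cells, at 0.878 CPM. EPOR, the erythropoietin receptor, was at 45.8 CPM. Of 8 megakaryocyte markers 7 were above 10 CPM, with ITGA2B, FLI1 and ITGB3 highest, PF4 at 56.9 CPM and VWF at 0.153 CPM. The mean pools both hairpins, and the paper reports that TMIGD2 knockdown raised surface CD41 (ITGA2B) and CD61 (ITGB3) on HEL cells. Of 6 lymphoid markers, CD3E, CD3D and MS4A1 were not listed, PAX5 was at 0.210 CPM and CD79A at 5.01 CPM. Of 6 fibroblast and epithelial markers, COL1A1, COL1A2, COL3A1 and EPCAM were below 1 CPM, KRT8 was at 4.10 CPM and KRT18 at 9.58 CPM. In bulk RNA, a share of cells with a high level and a lower level in all cells cannot be told apart, for the regulators as for the markers.

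The remaining regulators shared few 50-base words with other genes by the same search. No 50-base word of BCL11A, ZBTB7A, KLF3 or MYB occurred in another gene on the same strand, and the shares were 0.432% in SOX6, 1.11% in LIN28B and 0.270% in HMGA2. On the opposite strand of other transcripts 3.88% of the KLF3 words, 1.54% of the MYB words and 0.246% of the HMGA2 words occurred. In GENCODE 44, 10 listed genes overlapped one of 7 regulators, 8 of them on the other strand. Apart from C11orf58 and MALSU1, given above, those on the other strand were low beside the regulators they overlap, with KLF3-AS1 at 0.541 CPM, MYB-AS1 at 0.257 CPM, IGF2BP2-AS1 at 0.126 CPM and HMGA2-AS1 at 0.0842 CPM.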

How the data were processed

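RNA of 3 shCtrl and 3 shTMIGD2 HEL libraries was sequenced after poly(A) selection with a directional kit, and groups were taken from the labels. The authors aligned reads to hg38 with STAR 2.6.1b and counted fragments per refSeq gene with HTSeq 0.6.1. The authors' deposited table holds 1 log2 value per gene, read from its column name as the mean log2 CPM over both groups. It also holds 4 columns of their own comparison, which were not used (log2 fold change, F, p-value and FDR). The paper's methods describe a DESeq2 analysis of genes with a mean count of 1 or more in either group, whereas the authors' deposited columns are named as in an edgeR test, and the scaling and filter behind that one are not given in the sources used here. The table holds no value per library, so depth and spread per library are unknown, the planned test was not run, and no p-value is given.

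The regulators and the gene lists were chosen with earlier results of these data known. Mean CPM is 2 to the power of the deposited value. The CPM values sum to 1002514, and the lowest log2 value is -3.76, so genes near 0.0736 CPM lie at the floor. Of the gene names, 22754 matched a symbol of GENCODE 44 on GRCh38, the same build as hg38. Length was the union of exons. Each list is given by its 3 highest and 2 lowest genes in mean CPM, lists of 6 or fewer whole, apart from 2 genes that are not reported here. TUT4, HBG2, HBB, the let-7 hosts and the relatives of single regulators are named outside that rule. Site positions were checked against the genome sequence. The site search was tested on simulated sequences. Python 3.11.15 and pandas 2.3.3 were used.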

Additional observations from a re-analysis of the deposited data

How the results depend on the processing

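No paired analysis was possible because the table gives 1 pooled mean per gene, and leaving out libraries, other normalizations and other filters were not run for the same reason. With no spread, a value was counted as moved when it changed by over 1.5 times. The median level of the 10 regulators per kb moved with coding length, from 3.45 to 5.56 on the log2 scale, since coding lengths are shorter, and did not with canonical or longest transcripts. With canonical lengths 4 of the 10 single levels moved, those of BCL11A, HMGA2, SOX6 and IGF2BP3, to 1.24, 1.06, -2.55 and 3.66, and IGF2BP3 then lay above ZBTB7A. The count of let-7 matches went from 14 to 26 with positions 2 to 7 alone and to 8 with an A required, as the shorter and longer words are found more and less often, and was 12 in the longest 3′ UTRs. There BCL11A and MYB held 1 match each and HMGA2 none. The count of regulators at or above 1 CPM was 10, and 8 at 10 CPM. Levels near the floor of the table, as for LIN28A, rest on few reads, so folds against them are poorly measured.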
